A study of Homo sapiens with 8 samples.

Results

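The genes described here are the G1 cyclins, the kinases that D-type cyclins activate and the inhibitors that hold them back: CCND1, CCND2, CCND3, CCNE1, CCNE2, CDK4, CDK6, CDKN1A, CDKN1B and CDKN2A. They were chosen by gene symbol, and all 10 were found among the 58870 genes of the count table. RNA had been sequenced from 8 libraries of CFPAC-1 cells, a long-established line of human pancreatic ductal adenocarcinoma. The control cells carried an empty vector (4 libraries) and the other cells an ADRA2A transgene (4 libraries), which encodes the alpha-2A adrenergic receptor, a Gi-coupled receptor for adrenaline and noradrenaline that lowers cyclic AMP. Both groups were grown in the same medium with serum for 72 h, without a drug or an added agonist. The labels did not give the promoter of the transgene, the number of clones, or whether the 4 libraries of a group came from separate cultures, so p-values measure the spread between these libraries, which may be technical.

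In G1, D-type cyclins bind CDK4 or CDK6 and start to phosphorylate the retinoblastoma protein, which releases E2F transcription factors. E2F then drives genes of DNA replication and the E-type cyclins, which activate CDK2 and carry the cell into S phase. Inhibitors act at both steps. The INK4 protein p16, from CDKN2A, blocks CDK4 and CDK6, and the CIP/KIP proteins p21 (CDKN1A) and p27 (CDKN1B) block cyclin E with CDK2 and also bind the D-cyclin complexes. In pancreatic cancer CDKN2A is often lost, and cyclin D1 is a target of growth factor and RAS signalling.

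Library totals lay between 14427040 and 17528910 estimated counts. ADRA2A had 0 counts in all 4 empty-vector libraries and 112, 142, 154 and 172 counts in ADRA2A replicates 1 to 4, at least 49.2-fold above the level that 3 counts per empty-vector library would give. Of the 9 markers of ductal epithelium, 8 were above 1 CPM (counts-per-million, scaled between libraries by TMM) in every library, and their sum was 12000 to 13100 CPM over both groups. The exception was CFTR, at 0.253 to 1.16 CPM. Of the 4 leukocyte markers summed, PTPRC lay between 0 and 0.271 CPM, CD3E was at 0, and CD68 and CD14 were above 1 CPM throughout. Their sum was 89.8 to 96.2 CPM in empty-vector and 110 to 121 CPM in ADRA2A libraries, nearly all of it CD68, and its part in the results was not tested. Summed fibroblast markers stayed within 1.45 to 3.08 CPM, summed endothelial ones within 2.05 to 3.35 CPM and summed acinar ones at or under 0.271 CPM, and the endocrine markers INS, GCG and CHGA were at 0.

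Of the 10 genes, 9 passed the filter on low counts and were tested, and CCND2 had no count. In edgeR's quasi-likelihood test, with Benjamini-Hochberg adjustment over 14785 genes and a threshold of 0.05, 5 of the 9 were lower in the ADRA2A cells and 0 were higher. The lower genes were CCND1, CCND3, CCNE2, CDK6 and CDKN1B. CCNE1, CDK4, CDKN1A and CDKN2A did not pass. Over all genes tested 42.7% were called, 21.1% as lower and 21.6% as higher, so a call in this comparison is common. The 55.6% of these 9 genes that were lower is to be read against 21.1%. That share covers tested genes of all levels and was not matched to the abundance of these 9, and the same holds for the gene lists below. The genes were chosen with earlier results of these data known, so this count is a description only. The log2 fold changes of the 9 genes (ADRA2A over empty vector) ran from -0.43 to -0.01 with a median of -0.18, beside a median of 0.00 over all genes tested. The 4 libraries of one group did not overlap those of the other for CCND1, CCND3 and CDKN1B, with the ADRA2A libraries below in each, and this held for 39.2% of all genes tested, 19.5% with ADRA2A below and 19.7% with ADRA2A above.

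Levels of different genes were compared as CPM per kilobase of the canonical transcript. In the empty-vector cells CCND1 (113 ± 1.34 CPM per kilobase; SD, n = 4) and CDKN2A (111 ± 4.66) stood at the top and did not differ beyond their spread. They were followed by CDK4 (82.8 ± 2.81), CCND3 (32.9 ± 0.685) and then CDK6 (20.4 ± 1.31) and CDKN1B (20.0 ± 0.576), which again lay within their spread. CDKN1A (15.3 ± 1.11), CCNE2 (8.53 ± 0.311) and CCNE1 (6.97 ± 1.03) closed the order. In level per kilobase CCND1 ranked at percentile 96.0 among the genes tested and CCNE1 at percentile 48.6. In the ADRA2A cells CCND1, at 84.1 ± 1.17 CPM per kilobase, lay below CDKN2A, at 109 ± 6.22, and within the spread of CDK4, at 79.8 ± 5.28. The order depends on the length used, and in the ADRA2A cells so does the place of CCND1. Per kilobase of merged exons, in the empty-vector cells, CCND1 had 101 CPM, CDK4 49.9, CDKN2A 28.0, CDK6 19.5, CCND3 11.6 and CDKN1A 10.8. CCNE1, at 5.54, CDKN1B, at 5.21, and CCNE2, at 5.19, came last on that scale. In the ADRA2A cells, per kilobase of merged exons, CCND1 had 74.9 CPM, above CDK4 at 48.1 and CDKN2A at 27.4.

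**Figure D1:**
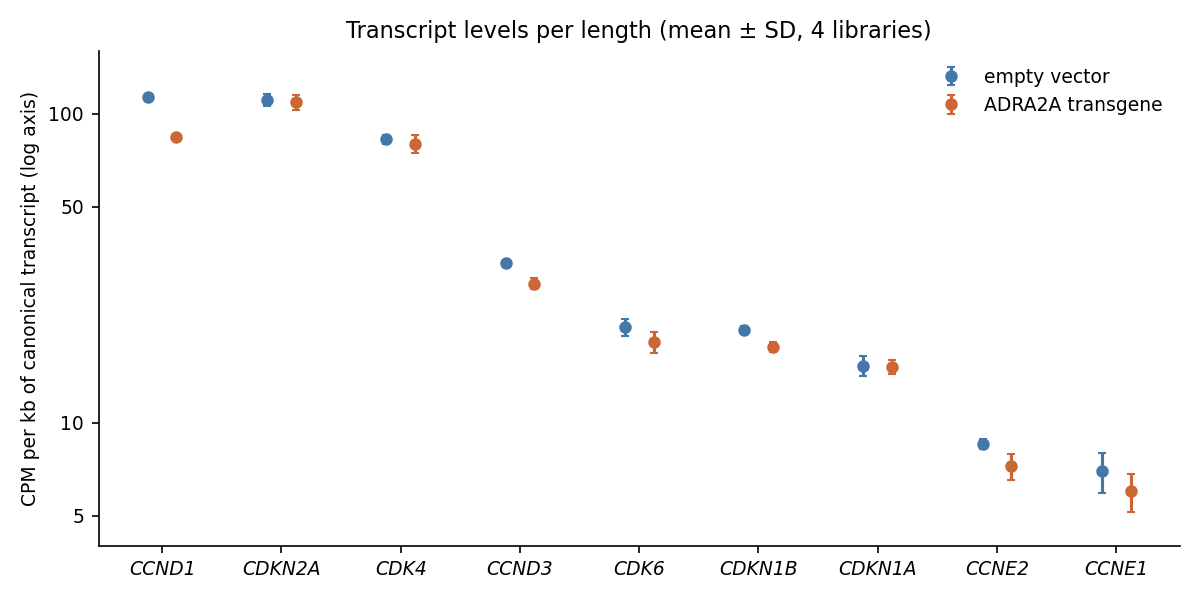
Level of the 9 detected genes as CPM per kilobase of canonical transcript on a log axis, mean ± SD over 4 libraries, empty vector in blue and ADRA2A transgene in orange. CCND1 falls from 113 to 84.1 and CDKN2A is at 111 and 109.

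Among the D-type cyclins, CCND1 was the dominant transcript and had the largest change of the 9 genes. CCND1 (ENSG00000110092.3) encodes cyclin D1 and occupies bases 69641156 to 69654474 of the plus strand of chromosome 11 (GRCh38, as for all positions here), with 5 exons in its canonical transcript. Its levels in empty-vector replicates 1 to 4 were 474, 476, 487 and 481 CPM, and in ADRA2A replicates 1 to 4 they were 349, 358, 361 and 357 CPM. The groups were far apart relative to their spread, which was 1.18% of the mean (coefficient of variation) in the empty-vector and 1.39% in the ADRA2A libraries. CCND1 was 25.7% lower in the ADRA2A cells, at a log2 fold change of -0.43 with an SE of 0.03 and a 95% interval from -0.49 to -0.37 (edgeR adjusted p = 6.77e-10). By its fold change CCND1 ranked at percentile 8.1 of all genes tested, and by its p-value it was number 228 of them. LTO1, on the opposite strand, shares 497 exonic bases with CCND1 and had between 190 and 294 counts per library against 5049 to 8382 for CCND1. The counting was not stated to use strand, so reads in the shared bases cannot be assigned with certainty. LTO1 itself fell (log2 fold change -0.34 ± 0.09, SE; edgeR adjusted p = 0.00293).

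CCND3 (ENSG00000112576.12; chromosome 6, 41934934 to 42050357, minus strand) encodes cyclin D3, which can stand in for cyclin D1 in many cell types. It had 67.2, 65.9, 68.4 and 65.3 CPM in empty-vector replicates 1 to 4 and 56.0, 58.3, 59.7 and 54.5 CPM in ADRA2A replicates 1 to 4. All ADRA2A libraries were below all empty-vector libraries. CCND3 was 14.4% lower, with -0.22 ± 0.05 (log2 fold change ± SE; edgeR adjusted p = 5.30e-04) and a 95% interval from -0.32 to -0.13. CCND2 (ENSG00000118971.8; chromosome 12, 4269771 to 4305353, plus strand), the gene of cyclin D2, had 0 counts in all 8 libraries. Over all 8 libraries together, a count of 0 allows up to 0.0236 CPM (3 counts over the 8 libraries, counting error only) for reads assigned to CCND2. ENSG00000285901, a protein-coding gene on the same strand, shares 999 exonic bases with CCND2 and had 0 to 20 counts per library, so reads from the shared bases may have been assigned to it.

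The 95% intervals of the log2 fold changes of CCND1 and CCND3 did not overlap, and the makeup of the D-type pool differed between the groups. The summed level of the D-type cyclins was between 145 and 149 CPM per kilobase in the empty-vector libraries and between 110 and 115 in the ADRA2A libraries. CCND1 made up 77.2, 77.5, 77.3 and 77.9% of that sum in empty-vector replicates 1 to 4 and 74.9, 74.6, 74.3 and 75.8% in ADRA2A replicates 1 to 4, with CCND3 as the rest. The share of CCND1 was lower in every ADRA2A library than in any empty-vector library (77.5% ± 0.32 against 74.9% ± 0.66; SD, n = 4 each). It is given as a description with no test, and it depends on the length: with merged exon lengths the shares were 89.7% and 88.3%, again without overlap.

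**Figure D2:**
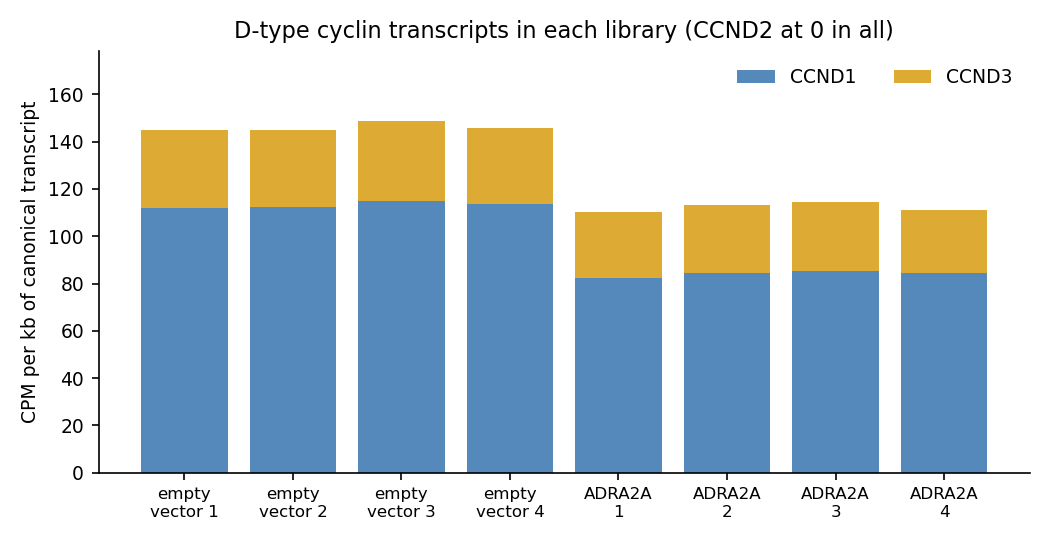
Stacked CPM per kilobase of canonical transcript of CCND1 (blue) and CCND3 (yellow) in each of the 8 libraries. The bars of the 4 empty-vector libraries end between 145 and 149 and those of the 4 ADRA2A libraries between 110 and 115; CCND2 was at 0 in all.

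The kinase partners CDK4 and CDK6 had smaller fitted changes than cyclin D1, and 1 of the 2 passed the test. CDK6 (ENSG00000105810.9; chromosome 7, 92604921 to 92836573, minus strand) had 238, 217, 250 and 249 CPM in empty-vector replicates 1 to 4 and 221, 212, 189 and 227 CPM in ADRA2A replicates 1 to 4. Empty-vector replicate 2 lay within the range of the ADRA2A libraries, and ADRA2A replicate 3 was the lowest of all 8. CDK6 passed the test at -0.17 ± 0.05 (log2 fold change ± SE; edgeR adjusted p = 0.012). The call was lost without empty-vector replicate 4 (log2 fold change -0.15, adjusted p = 0.0508) and without ADRA2A replicate 3 (-0.12, adjusted p = 0.0549). 

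CDK4 (ENSG00000135446.17; chromosome 12, 57747727 to 57756013, minus strand) had 150, 153, 162 and 152 CPM in empty-vector replicates 1 to 4 and 145, 157, 157 and 137 CPM in ADRA2A replicates 1 to 4, and the groups overlapped. Its log2 fold change of -0.05 ± 0.05 (SE) did not pass (edgeR adjusted p = 0.364), with a 95% interval from -0.15 to 0.04. The interval does not reach the log2 fold change of CCND1. TSPAN31, on the opposite strand, shares 1369 exonic bases with CDK4 and rose (log2 fold change 0.34 ± 0.06, SE; edgeR adjusted p = 2.20e-04), with 532 to 782 counts per library against 2090 to 2792 for CDK4. Without stated strand use, part of the CDK4 counts may be those of TSPAN31. Per kilobase, CDK4 made up 80.2% ± 0.95 of the CDK4 and CDK6 sum in the empty-vector and 81.4% ± 2.1 in the ADRA2A libraries (SD, n = 4 each), which overlapped.

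Both E-type cyclins were low among the 9 genes and near the middle of all genes tested in level per kilobase (percentile 53.6 for CCNE2 and 48.6 for CCNE1 in the empty-vector cells), with similar fold changes and unequal precision. CCNE2 (ENSG00000175305.17; chromosome 8, 94879770 to 94896678, minus strand), the gene of cyclin E2, had 23.7, 21.9, 22.4 and 23.2 CPM in empty-vector replicates 1 to 4 and 21.9, 19.3, 18.4 and 17.6 CPM in ADRA2A replicates 1 to 4. ADRA2A replicate 1 reached the lowest empty-vector library and the other 3 lay below. CCNE2 passed at -0.24 ± 0.08 (log2 fold change ± SE; edgeR adjusted p = 0.0143), and without ADRA2A replicate 4 it was -0.20 at an adjusted p of 0.0523. CCNE2 shares 1629 exonic bases with INTS8 on the opposite strand. INTS8 had more counts (440 to 612 per library against 278 to 405) and did not pass, at -0.13 ± 0.06 (log2 fold change ± SE; edgeR adjusted p = 0.0825). As strand use was not stated, part of the CCNE2 counts may be those of INTS8, which bears on both the level and the fold change of CCNE2.

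CCNE1 (ENSG00000105173.14; chromosome 19, 29811991 to 29824312, plus strand), the gene of cyclin E1, had 10.7, 14.9, 15.0 and 13.8 CPM in empty-vector replicates 1 to 4 and 13.1, 13.1, 11.1 and 9.68 CPM in ADRA2A replicates 1 to 4. Empty-vector replicate 1 was below all but 1 of the ADRA2A libraries. With 153 to 259 counts per library CCNE1 was the least abundant and most variable of the 9 genes, at a coefficient of variation of 14.8% and 14.1%. Its log2 fold change of -0.22 ± 0.12 (SE) did not pass (edgeR adjusted p = 0.147; 95% interval -0.46 to 0.03). Without empty-vector replicate 1 it was -0.32 and passed (adjusted p = 0.0246). Per kilobase CCNE1 made up 44.8% ± 4.7 of the E-type sum in the empty-vector and 45.3% ± 2.1 in the ADRA2A libraries (SD, n = 4 each). With merged exon lengths its shares were 51.4% and 51.9%.

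**Figure D3:**
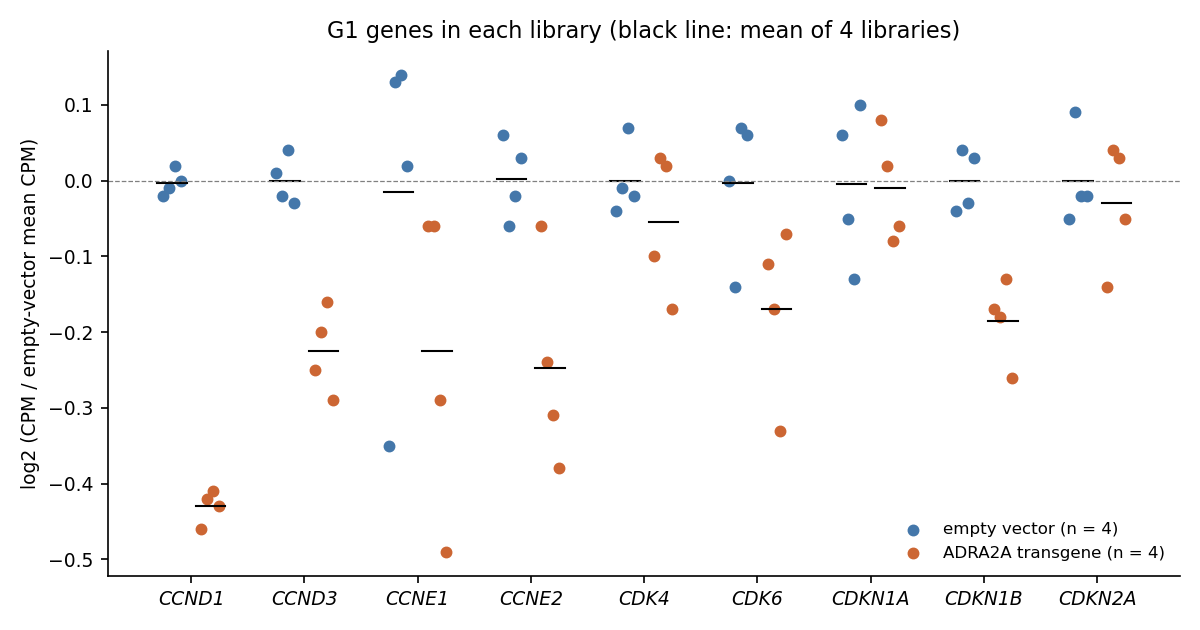
The log2 ratio of each library's CPM to the empty-vector mean for the 9 detected genes, with 4 empty-vector libraries in blue, 4 ADRA2A libraries in orange and the group mean as a black line. CCND1, CCND3 and CDKN1B show no overlap between the groups, while empty-vector replicate 1 of CCNE1 and ADRA2A replicate 3 of CDK6 stand low in their groups.

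Of the 3 inhibitor genes, CDKN1B was lower and CDKN1A and CDKN2A did not pass the test. CDKN1B (ENSG00000111276.11; chromosome 12, 12685498 to 12722369, plus strand), the gene of p27, had 46.7, 49.6, 47.3 and 49.2 CPM in empty-vector replicates 1 to 4 and 42.9, 42.5, 44.0 and 40.2 CPM in ADRA2A replicates 1 to 4. The groups did not overlap, and CDKN1B fell by 0.18 ± 0.05 on the log2 scale (SE; edgeR adjusted p = 0.00565), or 12.0%. The p27 protein is controlled largely by degradation through SKP2, which the counts do not show. SKP2 transcripts had 47.7 ± 3.31 CPM in the empty-vector and 45.6 ± 3.11 CPM in the ADRA2A libraries (SD, n = 4 each; edgeR adjusted p = 0.414).

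CDKN1A (ENSG00000124762.13; chromosome 6, 36676460 to 36687337, plus strand), the gene of p21 and a classic target of p53, had 33.8, 31.1, 29.6 and 34.8 CPM in empty-vector replicates 1 to 4 and 34.3, 32.9, 30.5 and 31.1 CPM in ADRA2A replicates 1 to 4. The ADRA2A libraries all lay within the empty-vector range. The fitted value was -0.01 ± 0.06 (log2 fold change ± SE; edgeR adjusted p = 0.939), with a 95% interval from -0.14 to 0.13. Per kilobase, CDKN1A made up 43.3% ± 1.9 of the sum of CDKN1A and CDKN1B in the empty-vector and 46.4% ± 1.5 in the ADRA2A libraries (SD, n = 4 each), with overlap. With merged exon lengths these shares were 67.4% and 70.1%, so which of the 2 genes made up most of the sum depends on the length.

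CDKN2A (ENSG00000147889.17; chromosome 9, 21967752 to 21995301, minus strand) was expressed in every library, with 1429 to 1937 counts. Its levels were 105, 115, 107 and 107 CPM in empty-vector replicates 1 to 4 and 98.9, 112, 111 and 105 CPM in ADRA2A replicates 1 to 4, and the groups overlapped. The fitted value was -0.03 ± 0.05 (log2 fold change ± SE; edgeR adjusted p = 0.682), with a 95% interval from -0.12 to 0.07. The gene makes p16 and, from another first exon and reading frame, p14ARF, which protects p53 from MDM2, and a count per gene cannot separate them. Its neighbour CDKN2B, the gene of the related INK4 inhibitor p15, did change: it had 21.5, 23.7, 19.9 and 21.0 CPM in empty-vector replicates 1 to 4 and 14.0, 14.3, 15.1 and 13.4 CPM in ADRA2A replicates 1 to 4. CDKN2B fell by 0.60 ± 0.08 on the log2 scale (SE; edgeR adjusted p = 4.66e-06). Its 95% interval, -0.76 to -0.43, overlaps that of CCND1. The antisense RNA CDKN2B-AS1, which shares 593 exonic bases with CDKN2A, rose at low abundance from 4.98 ± 0.552 to 6.41 ± 0.631 CPM (SD, n = 4 each; log2 fold change 0.36 ± 0.14, SE; edgeR adjusted p = 0.0371), with 67 to 116 counts per library.

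The promoters of 4 of these genes are shown because 2 of them (CCND3 and CDKN1B) fell without overlap between the groups and 2 (CDK4 and CCNE1) did not pass the test. They were taken from RefSeq promoter windows on GRCh38.p14, each 250 bases before to 50 after a start site, in which 7 of the 10 genes had an entry; CCND1, CCND2 and CCNE2 had none. The printed bases run 5′ to 3′ on the gene's strand from the far end towards the start site and stop before the first annotated exon base of the gene. Capitals mark the GC box GGGCGG, bound by SP factors, and the E-box CACGTG, bound by MYC and related factors, on either strand. The stretches are chr6:41941809-41942058 (minus strand) for CCND3, chr12:12717118-12717367 (plus) for CDKN1B, chr12:57752448-57752560 (minus) for CDK4 and chr19:29811741-29811990 (plus) for CCNE1.
CCND3: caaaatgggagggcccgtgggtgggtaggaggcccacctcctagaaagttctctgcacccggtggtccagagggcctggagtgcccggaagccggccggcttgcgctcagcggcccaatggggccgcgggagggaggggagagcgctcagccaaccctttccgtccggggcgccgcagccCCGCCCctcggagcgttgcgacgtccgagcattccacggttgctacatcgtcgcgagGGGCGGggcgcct
CDKN1B: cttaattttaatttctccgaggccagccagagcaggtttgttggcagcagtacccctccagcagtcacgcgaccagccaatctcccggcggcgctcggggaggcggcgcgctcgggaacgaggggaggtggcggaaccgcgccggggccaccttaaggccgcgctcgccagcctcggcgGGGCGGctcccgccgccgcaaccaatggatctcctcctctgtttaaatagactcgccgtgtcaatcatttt
CDK4: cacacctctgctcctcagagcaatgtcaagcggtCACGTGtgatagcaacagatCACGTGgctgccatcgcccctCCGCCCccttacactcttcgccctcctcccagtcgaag
CCNE1: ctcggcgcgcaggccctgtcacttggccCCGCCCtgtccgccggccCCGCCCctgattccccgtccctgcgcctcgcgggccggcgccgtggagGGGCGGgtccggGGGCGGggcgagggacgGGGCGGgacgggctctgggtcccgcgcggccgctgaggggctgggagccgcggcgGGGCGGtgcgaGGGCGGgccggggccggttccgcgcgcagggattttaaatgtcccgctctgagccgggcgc

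Over the full 300-base windows at the canonical starts, CCNE1 held 7 GC boxes, CCND3 and CDKN1A 4 each, CDK4 and CDK6 3 each, CDKN2A 2 and CDKN1B 1. GC boxes are common, in 45.0% of the 35116 RefSeq promoter windows. The E-box was found in 7.26% of all windows, 3 times in that of CDK4, with its first base at -216, -196 and -101 from the start, and once in that of CDK6. The full cyclic AMP response element TGACGTCA, found in 1.85% of all windows, was in none of the 7 genes' windows at the canonical start. Neither was TTTNGCGC, found in 1.79%, the only form of the E2F motif that was searched. The shorter element TGACG (24.6% of all windows, and also a part of the full element) was in that of CDKN1B, 6 bases past the start. These matches describe the letters of each window only.

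Genes next to each other on a chromosome can shift together, so each member was set beside the tested genes whose start lay within 5 Mb. Around CCND1 there were 175, of which 41 (23.4%) were called lower and 29 (16.6%) higher, near the 21.1% and 21.6% over all genes tested. Their median log2 fold change was -0.02, against -0.43 for CCND1, and 6.86% of them had a lower fold change. Closer in, within 2 Mb of CCND1, 13 of 31 genes (41.9%) were called lower and 7 (22.6%) higher. The median of those 31 genes was -0.11, and 16.1% of them had a lower fold change than CCND1. Around CCND3 the median of 83 genes was 0.00, around CDKN1B that of 56 genes was 0.04 (within 2 Mb, -0.12), around CDK6 that of 39 genes was 0.07 and around CCNE2 that of 43 genes was -0.06, each above the value of the member. The surroundings of CDK4 leaned higher, with 52 of 120 genes (43.3%) called higher, 12 (10.0%) lower and a median of 0.11, while CDK4 itself was at -0.05. The surroundings of CCNE1 leaned lower, with 10 of 31 genes (32.3%) called lower, 1 (3.23%) higher and a median of -0.15, near the -0.22 of CCNE1. Around CDKN2A the median of 22 genes was -0.15, within 2 Mb -0.03, and around CDKN1A that of 137 genes was 0.05.

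**Figure D4:**
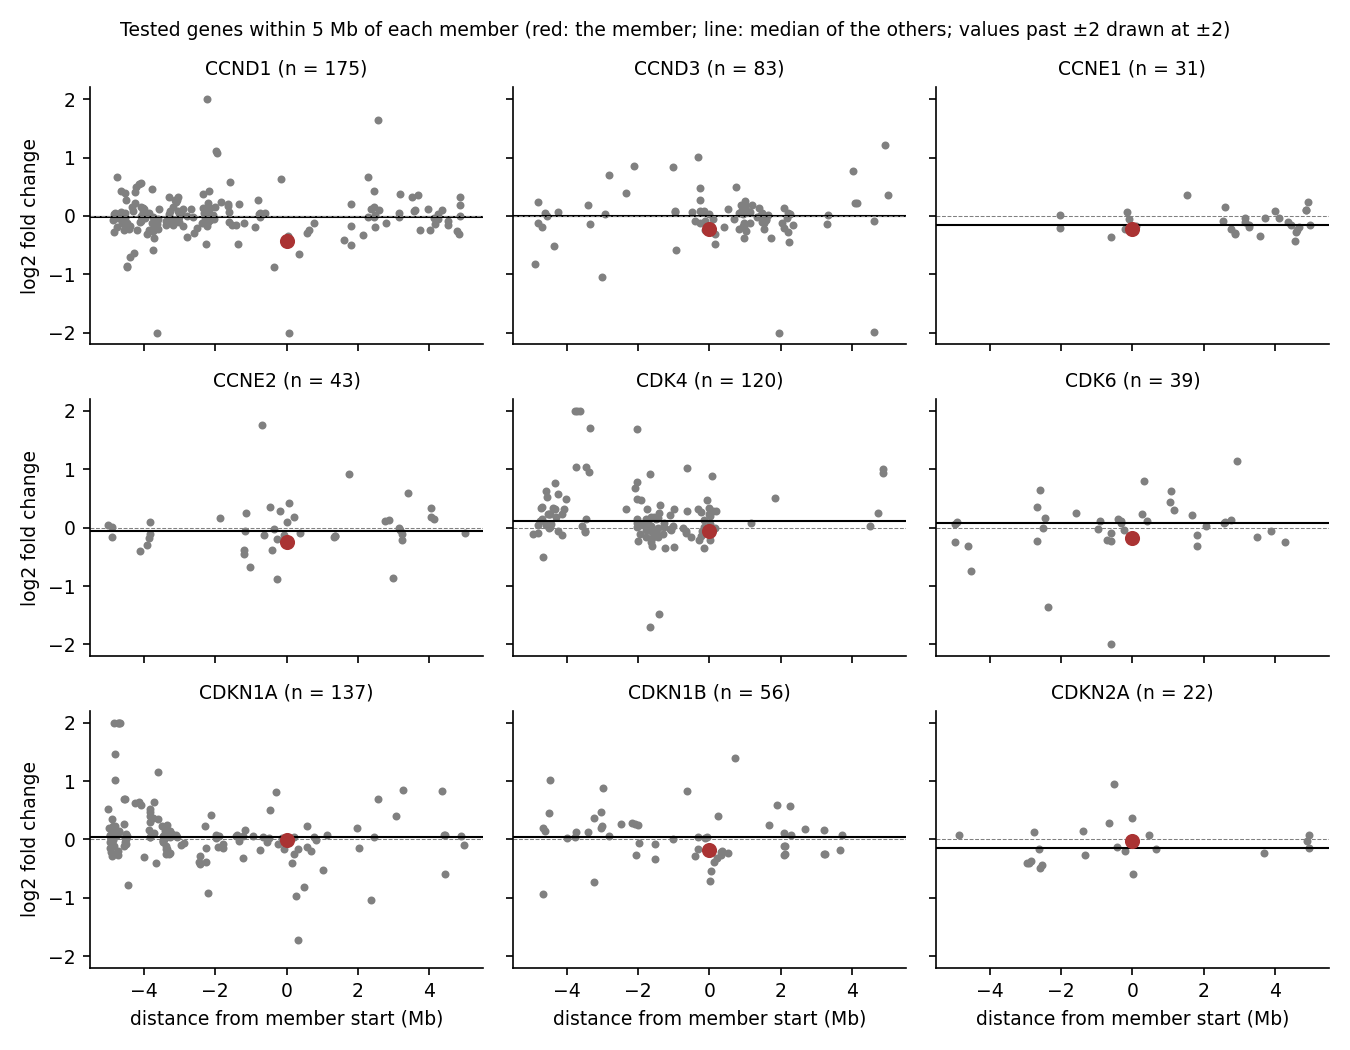
Log2 fold change (ADRA2A over empty vector) of the tested genes within 5 Mb of each member, by distance of the start sites in Mb, with the member in red and the median of the others as a black line. CCND1 lies well below the median of -0.02 of its 175 neighbours, while CCNE1 lies near that of its 31 neighbours, -0.15.

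The other regulators of the G1/S step were described from a list of 29 genes, 28 of which were tested (CCNA1 had 0 counts). Of these 15 (53.6%) were lower in the ADRA2A cells and 4 (14.3%) higher, beside 21.1% and 21.6% over all genes tested, and 9 did not pass, with a median log2 fold change of -0.16 beside 0.00 over all genes tested. In fits that left out a library or used other factors, between 10 and 15 were lower and 4 were higher. CCNA2, the cyclin that partners CDK2 in S phase, had 151, 150, 151 and 151 CPM in empty-vector replicates 1 to 4 and 113, 118, 126 and 108 CPM in ADRA2A replicates 1 to 4 (log2 fold change -0.37 ± 0.04, SE; edgeR adjusted p = 1.01e-06). TFDP1, the dimer partner of E2F factors, fell by 0.30 ± 0.04 on the log2 scale (SE; edgeR adjusted p = 1.51e-05). Its paralogue TFDP2 went the other way and rose by 0.41 ± 0.05 (SE; adjusted p = 7.34e-07).

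Among the E2F factors, E2F1, E2F3, E2F4, E2F5, E2F7 and E2F8 were called lower, with log2 fold changes between -0.33 (E2F1) and -0.14 (E2F3), and E2F2 and E2F6 did not pass. CDK2, the kinase partner of cyclin E, was lower by a small amount (log2 fold change -0.17 ± 0.05, SE; edgeR adjusted p = 0.00636), and so was the CDK phosphatase gene CDC25A (-0.30 ± 0.09, SE; adjusted p = 0.00756). Of the pocket protein genes, RBL1 fell by 0.31 ± 0.06 (SE; edgeR adjusted p = 6.59e-04), while RB1 had 70.4 ± 2.28 and 71.4 ± 4.16 CPM (SD, n = 4 each; adjusted p = 0.772). The lowest fold change of the list was that of the CDK inhibitor gene CDKN1C, at low abundance, with 25 to 56 counts per library. CDKN1C went from 2.77 ± 0.679 to 1.81 ± 0.366 CPM (SD, n = 4 each; log2 fold change -0.61 ± 0.24, SE; edgeR adjusted p = 0.0443), and the groups overlapped. The highest member of the list was the INK4 inhibitor CDKN2C, the gene of p18. It had 56.3, 51.6, 52.7 and 49.9 CPM in empty-vector replicates 1 to 4 and 79.3, 80.3, 82.8 and 74.5 CPM in ADRA2A replicates 1 to 4, with no overlap, and rose by 0.59 ± 0.05 on the log2 scale (SE; edgeR adjusted p = 9.39e-09). The INK4 genes therefore went in different directions: CDKN2B fell, CDKN2C rose, and CDKN2A and CDKN2D (log2 fold change 0.01, adjusted p = 0.94) did not pass. AMBRA1, which directs the degradation of D-type cyclins, rose by 0.20 ± 0.05 (SE; edgeR adjusted p = 0.00473), and FBXO4, also linked to cyclin D1 turnover, rose by 0.27 ± 0.08 (SE; adjusted p = 0.013).

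Most of the S-phase genes downstream of E2F were lower. All 30 listed genes were tested, and 24 (80.0%) were lower and 1 (3.33%) higher, beside 21.1% and 21.6% over all genes tested, and 5 did not pass, with a median log2 fold change of -0.27. PCNA, the sliding clamp of DNA polymerase, had 242, 258, 243 and 247 CPM in empty-vector replicates 1 to 4 and 177, 172, 166 and 162 CPM in ADRA2A replicates 1 to 4 (log2 fold change -0.55 ± 0.04, SE; edgeR adjusted p = 4.93e-10). TYMS, thymidylate synthase, fell by 0.64 ± 0.06 (SE; adjusted p = 1.88e-08) and CDC6, which loads the replicative helicase, by 0.43 ± 0.04 (SE; adjusted p = 2.03e-07). RRM1, the large subunit of ribonucleotide reductase, was the one that rose (0.20 ± 0.04, SE; edgeR adjusted p = 3.27e-04), and RRM2, the small subunit, did not pass (0.02, adjusted p = 0.642). In bulk RNA, fewer cells in S phase and less of these transcripts per cell cannot be told apart.

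The p53 target list, set beside CDKN1A, was called about as often as genes in general (40.0% against 42.7% of all genes tested), in both directions. Of 21 genes 20 were tested, and 6 (30.0%, beside 21.6%) were higher, 2 (10.0%, beside 21.1%) lower and 12 did not pass, with a median log2 fold change of 0.11. BTG2, an antiproliferative gene, rose at low abundance from 2.10 ± 0.374 to 4.98 ± 0.806 CPM (SD, n = 4 each; log2 fold change 1.25 ± 0.19, SE; edgeR adjusted p = 2.92e-05). ZMAT3, an RNA-binding protein gene, rose by 0.41 ± 0.09 (SE; adjusted p = 6.35e-04) and SESN2, a stress-induced sestrin gene, by 0.33 ± 0.09 (SE; adjusted p = 0.00384). The apoptosis effector BAX fell by 0.37 ± 0.05 (SE; edgeR adjusted p = 1.34e-05) and CCNG1 by 0.14 ± 0.04 (SE; adjusted p = 0.00827). MDM2, the p53 ubiquitin ligase, had 73.5 ± 5.17 and 80.1 ± 5.37 CPM (SD, n = 4 each; adjusted p = 0.0844).

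**Figure D5:**
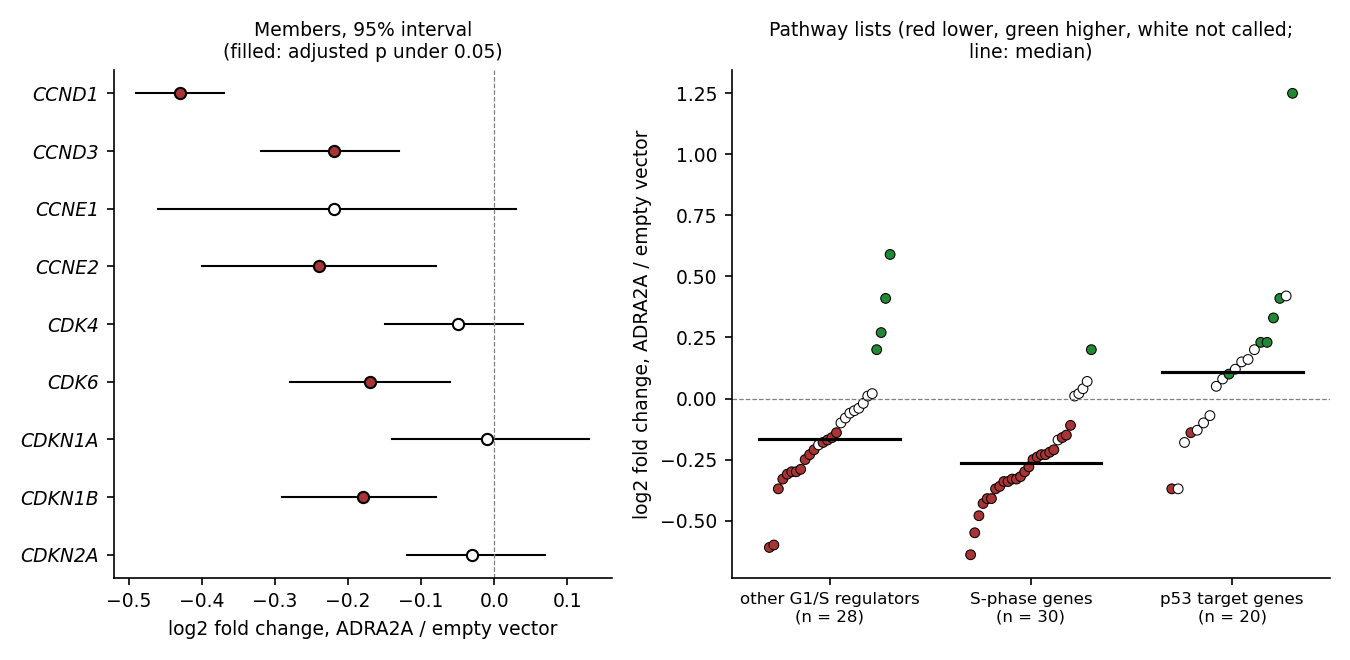
Left, log2 fold change (ADRA2A over empty vector) of the 9 tested members with its 95% interval, filled where the adjusted p was under 0.05. Right, the same quantity for the tested genes of the 3 pathway lists, with the list median as a line at -0.16, -0.27 and 0.11.

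The genes whose levels followed CCND1 most closely over the 8 libraries were ALDH1A3, C6orf15 and AXL, with Pearson correlations of log2 CPM of 0.9985, 0.9984 and 0.9982. The libraries fall into 2 groups, so these values mostly reflect the difference between the groups and are given as a description. AXL, a receptor tyrosine kinase gene, had 809, 818, 828 and 810 CPM in empty-vector replicates 1 to 4 and 548, 563, 577 and 549 CPM in ADRA2A replicates 1 to 4. ALDH1A3, an enzyme of retinoic acid synthesis, went from 663 ± 28.7 to 366 ± 9.27 CPM and C6orf15 from 33.7 ± 1.52 to 10.2 ± 0.684 CPM (SD, n = 4 each).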

How the data were processed

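RNA was measured in 8 libraries of CFPAC-1 cells, 4 per group, and samples were grouped by their titles. The authors deposited 1 table of RSEM estimated counts per gene, not scaled between libraries. Cutadapt, STAR, RSEM, DESeq2 and the build hg38 are named in the submitters' processing notes; versions, annotation release and strand setting are not given in the sources used here. Estimated counts were rounded to whole numbers. All 8 columns matched a sample, and 58517 of 58870 genes matched GENCODE release 44 on GRCh38, which gave positions and lengths.

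Genes were kept by filterByExpr (14785 genes) and tested with edgeR 4.0.16 (R 4.3.3; TMM factors 0.9938 to 1.0055, glmQLFit and glmQLFTest, group as the single term), with Benjamini-Hochberg adjustment over all genes tested. The SE is the absolute log2 fold change over the square root of F. The code was tested on simulated data. Alternatives were DESeq2 1.42.0, limma 3.58.1 voom, other factors and filters, a replicate block and leaving out each library. Pairs of libraries of a group differed by 2.15 to 5.04 times counting noise (chi-square over degrees of freedom), so they differed by more than counting error. This does not show whether they came from separate cultures. Depth limits the precision of single counts, and totals are given with the results.

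The members and lists were chosen with earlier results of these data known. All 10 members were named, from each list the 3 genes with the smallest p per direction among those called, and the 3 genes most correlated with CCND1. CDK2, CDC25A, CDKN1C, the E2F genes, RB1, RBL1, RRM2, FBXO4, CDKN2D, SKP2, MDM2, LTO1, TSPAN31, INTS8 and CDKN2B-AS1 were named after their values were seen or for their position. Another leukocyte marker of the list is not reported here and is left out of the sum of the 4 others.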

Additional observations from a re-analysis of the deposited data

How the results depend on the processing

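Leaving out one library in turn moved the count of genes called from 6315 to between 5703 and 6044, and the 7 other settings gave 5823 to 6548. The 9 tested genes gave 135 values under the alternatives, of which 125 kept direction and side of the threshold. CCND1 (-0.45 to -0.42), CCND3 (-0.25 to -0.20) and CDKN1B (-0.20 to -0.16) passed in all 15 alternatives. Calls among the members numbered 5 under all 7 other settings and between 4 and 6 when a library was left out. Over the fits that left out a library, log2 fold changes ranged from -0.32 to -0.13 for CCNE1, -0.31 to -0.20 for CCNE2, -0.21 to -0.12 for CDK6, -0.05 to 0.03 for CDKN1A and -0.05 to 0.01 for CDKN2A, the last 2 passing in none. With merged exon lengths the CCND1 share of the D-type cyclins was 89.7% and 88.3% and that of CCND3 10.3% and 11.7% (empty vector and ADRA2A). A window of 2 Mb moved the median of neighbours to -0.16 for CCND2, -0.03 for CDKN2A and, with a change of sign, -0.12 for CDKN1B. Equal replicate numbers did not pair the libraries (correlations of deviations -0.042 to 0.07, and not every library correlated best with its own number); with the replicate block 6401 genes and 5 members were called. CCNE1 had the fewest counts of the tested members, 153 to 259 per library.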
